A study of Mus musculus with 16 samples.

Results

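The E2F transcription factors, E2f1 to E2f8, were examined in germinal centre B cells that carry a mutant form of EZH2, the enzyme by which Polycomb repressive complex 2 methylates histone H3. The members were taken by gene symbol, and all 8 were found among the 49584 genes of the deposited count table and were among the 15240 with enough counts to be tested. The mutant mice were Ezh2(Y641F)fl/wt;Cγ1-cre+/-, with 1 conditional copy of Ezh2 that encodes the Y641F change seen in germinal centre lymphoma, and the control mice were Cγ1-cre+/- without it. Cγ1-cre expresses the recombinase from the Cγ1 locus, so recombination takes place in germinal centre B cells and every library of both genotypes carried the Cre allele. All mice were C57BL/6J, 3 months old, from a litter labelled as number 1, and had received sheep red blood cells 8 days earlier. Centrocytes, the light zone cells, were sorted from spleen as B220+ FAS+ CD38- CXCR4- CD86+, and centroblasts, the dark zone cells, as B220+ FAS+ CD38- CXCR4+ CD86-. Mutant centrocytes, control centrocytes, mutant centroblasts and control centroblasts had 4 RNA-seq libraries each. The labels give the same genotype and number to a centroblast and a centrocyte library. They do not say whether the number stands for an animal, so p-values measure the spread between these libraries.

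E2F proteins bind promoters of genes for DNA replication and cell division. E2F1, E2F2 and E2F3 are activators held in check by the retinoblastoma protein RB until cyclin-dependent kinases phosphorylate it at the end of G1. E2F4 and E2F5 work mostly as repressors with the RB relatives p107 and p130, in the DREAM complex of resting and early G1 cells, and E2F6 represses without RB, as part of a Polycomb complex called PRC1.6. E2F7 and E2F8 are the atypical members: they bind DNA without a DP partner, repress E2F targets from S phase on, and are themselves made from E2F-responsive promoters. Centroblasts divide rapidly in the dark zone, whereas centrocytes in the light zone mostly wait for signals from T cells.

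The libraries held 35230563 to 44466911 counted reads, and no pair of libraries held identical values. Member counts per library ran between 634 for E2f5 and 13195 for E2f2, and since the labels mention no molecular identifiers, reads that PCR copied from 1 molecule may each have been counted. Cxcr4, used in the sort, averaged 160 ± 23.6 CPM in mutant and 197 ± 10.9 CPM in control centrocytes, against 401 ± 20.9 CPM in mutant and 444 ± 17 CPM in control centroblasts (CPM, the count scaled to the TMM-adjusted library size; ± SD over 4 libraries). Cd86 averaged 311 ± 57.4 and 280 ± 40.8 CPM in mutant and control centrocytes, against 163 ± 23.3 and 145 ± 37.7 CPM in mutant and control centroblasts. The summed level of 8 germinal centre B cell markers was 5810 to 7820 CPM over all libraries, and that of 5 T cell markers was at most 2.67 CPM. The summed level of 9 macrophage markers was 231 and 227 CPM in mutant centrocyte libraries 3 and 4, 39.9 and 62.7 CPM in the other two mutant centrocyte libraries, and 54.9 to 89.7 CPM in control centrocytes. It was 23.1 to 66.9 CPM in mutant and 16 to 49.6 CPM in control centroblasts. Libraries 1 and 2 of every group were from males and libraries 3 and 4 from females by their Y-linked transcripts. Ezh2 itself averaged 189 ± 15.2 CPM in mutant and 245 ± 15 CPM in control centrocytes, and 222 ± 32.0 CPM in mutant and 289 ± 42.0 CPM in control centroblasts. Ezh2 fell by 0.38 ± 0.12 in both cell types (log2, SE; adjusted p = 0.0395 in centrocytes and 0.0486 in centroblasts, edgeR), calls lost in 8 and 10 of 19 other settings. Reads of the mutant and the wild-type allele are summed in this count.

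E2f8, E2f7 and E2f2 were the members that passed the test in at least 1 comparison below, and their promoter windows are printed for that reason. Each runs from 250 bases before to 50 bases after the RefSeq start site, on the strand of the gene (RefSeq, GRCm38.p6). The letters in capitals match either an E2F site or the CHR element TTTGAA, on either strand. The E2F site has the 8 letters TTTCCCGC, TTTCGCGC, TTTGCCGC or TTTGGCGC, and its core is the same without the first T, 7 letters. Through the CHR element the DREAM complex binds promoters of mitotic genes. The window of E2f8 is chr7:48881547-48881846 on the minus strand, that of E2f7 is chr10:110745189-110745488 on the plus strand, and that of E2f2 is chr4:136172024-136172323 on the plus strand, with a RefSeq start 120 bases before the GENCODE M21 start.
E2f8: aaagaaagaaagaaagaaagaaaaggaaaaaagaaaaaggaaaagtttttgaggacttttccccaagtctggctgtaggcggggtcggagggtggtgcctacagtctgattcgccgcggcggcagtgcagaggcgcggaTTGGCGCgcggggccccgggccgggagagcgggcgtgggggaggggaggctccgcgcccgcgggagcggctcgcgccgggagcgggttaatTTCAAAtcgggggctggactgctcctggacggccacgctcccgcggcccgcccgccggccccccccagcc
E2f7: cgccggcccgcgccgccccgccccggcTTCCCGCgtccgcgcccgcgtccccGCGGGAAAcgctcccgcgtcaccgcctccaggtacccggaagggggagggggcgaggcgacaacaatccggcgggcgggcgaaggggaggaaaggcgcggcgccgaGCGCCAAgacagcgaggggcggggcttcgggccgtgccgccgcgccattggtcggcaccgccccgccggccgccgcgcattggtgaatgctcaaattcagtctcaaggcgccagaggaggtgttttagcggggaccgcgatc
E2f2: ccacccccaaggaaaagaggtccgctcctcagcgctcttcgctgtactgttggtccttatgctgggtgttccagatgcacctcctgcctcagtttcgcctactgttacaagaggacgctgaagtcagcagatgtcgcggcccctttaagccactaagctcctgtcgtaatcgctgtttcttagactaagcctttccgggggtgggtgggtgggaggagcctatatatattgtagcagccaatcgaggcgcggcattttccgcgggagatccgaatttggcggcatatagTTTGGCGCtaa

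The 8-letter site was present in 2.26% of 32851 promoter windows of the same length, and the 7-letter core, which it contains, in 9.57%. These shares count windows with at least 1 match, at any GC content. The windows of E2f7, E2f8, E2f3 and E2f2 have 75.3%, 66.7%, 55.3% and 54.7% GC, and a share among windows of like GC was not computed. E2f7 held 3 cores, at positions −223, −198 and −92 from the start, and the one at −198 was also an 8-letter site. E2f8 held 1 core at −111, overlapping a CCAAT box at −112, and a CHR element at −20, a motif present in 17.9% of windows. E2f2 held an 8-letter site at 39. E2f3, at chr13:29986014-29986313 on the minus strand, held 2 cores, 1 of them an 8-letter site at −11, and a CHR element at −23. The window of E2f6 held none of these letters, the window of E2f1 began downstream of the GENCODE start and is left out, as are second windows of E2f2 and E2f3 inside those genes. The table matched 6 of the 8 members, not E2f4 and E2f5. A match of letters is a description and not a measured binding site.

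**Figure D1:**
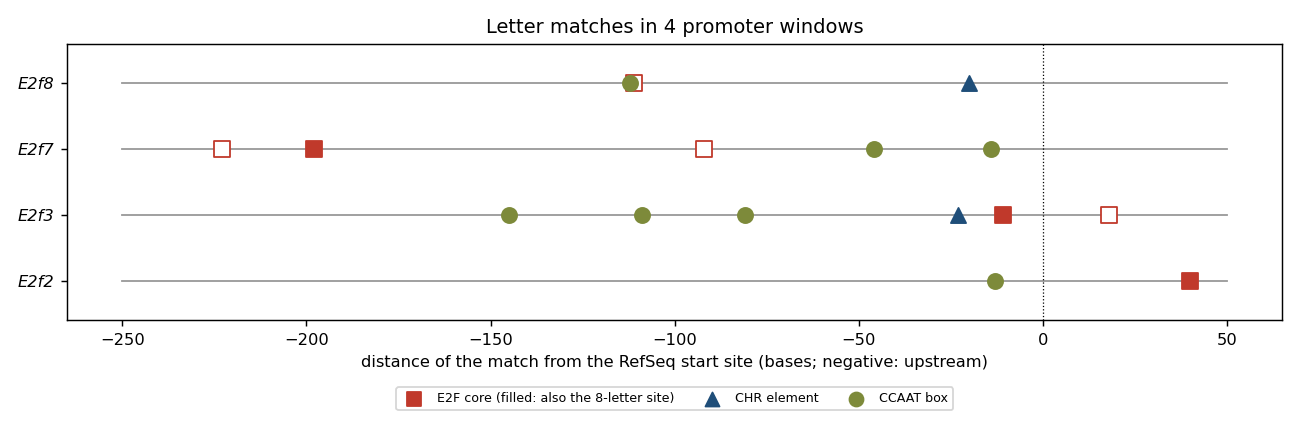
Positions of letter matches in the promoter windows of E2f8, E2f7, E2f3 and E2f2, in bases from the RefSeq start site (negative, upstream). Squares mark the 7-letter E2F core (filled where it is also the 8-letter site), triangles the CHR element and circles the CCAAT box, a motif found in 37.4% of all windows. E2f7 holds 3 cores upstream of its start, and E2f8 holds 1.

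Per length of exon, E2f4 and E2f2 were the most abundant members in every group. In RPKM (the CPM divided by exon length in kb, computed with the union of exons in GENCODE M21), E2f4 averaged 64.9 ± 7.57 in mutant and 71.7 ± 7.28 in control centrocytes, and 72.5 ± 7.10 in mutant and 73.9 ± 10.3 in control centroblasts (SD, n = 4). E2f2 averaged 52.0 ± 7.18 RPKM in mutant and 50.1 ± 2.03 RPKM in control centrocytes, and 59.1 ± 5.59 RPKM in mutant and 63.2 ± 4.86 RPKM in control centroblasts. The libraries of E2f4 and E2f2 overlapped in 3 groups and were apart in control centrocytes. Next came E2f1 at 23.0 and 27.0 RPKM in mutant and control centrocytes and 25.7 and 30.4 RPKM in mutant and control centroblasts. E2f8 followed E2f1 in every group, at 14.1 and 23.4 RPKM in mutant and control centrocytes and 18.1 and 27.3 RPKM in mutant and control centroblasts. The libraries of E2f1 and E2f8 were apart in both mutant groups and overlapped in both control groups. With the length of the longest transcript in place of the exon union, E2f8 stood above E2f1 in both control groups.

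E2f5, E2f3, E2f7 and E2f6 filled the lower places of the order. E2f5 averaged 11.0 to 13.4 RPKM and E2f3 6.99 to 10.3 RPKM over the 4 groups, and their libraries overlapped in control centrocytes only. In mutant centroblasts E2f7 (3.74 RPKM) stood below E2f6 (4.84 RPKM), and in control centroblasts it stood above E2f6 (5.11 RPKM for E2f7, 3.99 RPKM for E2f6). The libraries of E2f7 and E2f6 were apart in both centroblast groups. In mutant centrocytes E2f7 was again the lowest, at 3.12 RPKM against 4.79 RPKM for E2f6 with the libraries apart, and in control centrocytes the 2 overlapped (4.69 and 4.38 RPKM). Longest-transcript lengths kept E2f7 below E2f6 in both mutant groups and above it in control centroblasts, and put it below E2f6 in control centrocytes and E2f6 above E2f3 in both mutant groups.

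**Figure D2:**
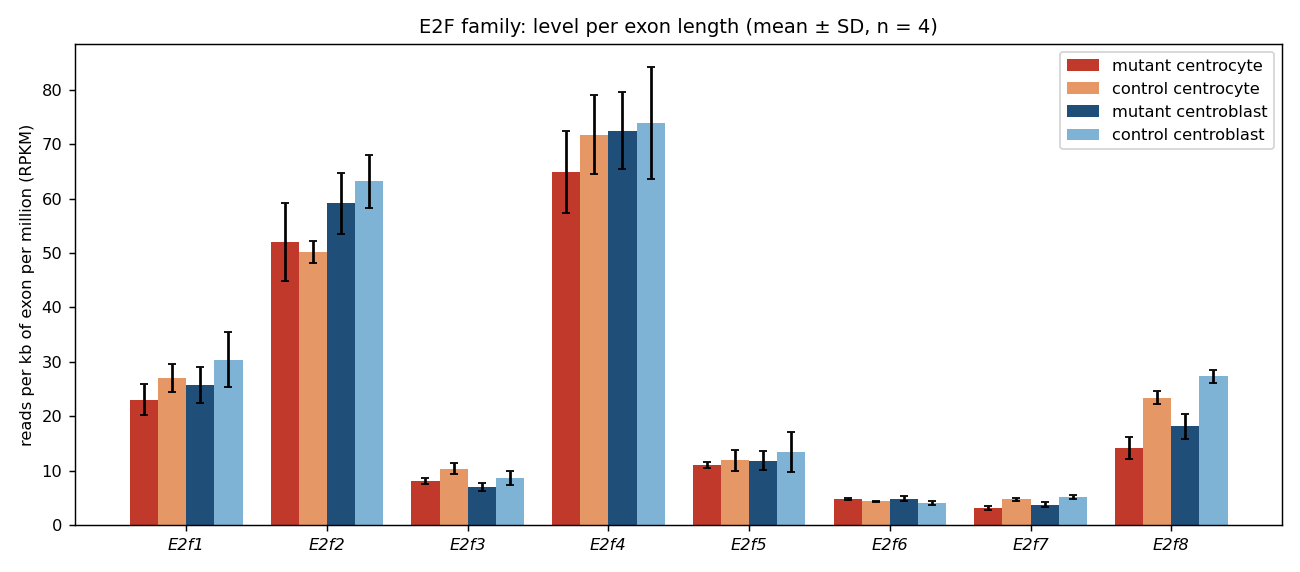
Level of each E2F member in RPKM, with bars at the mean and error lines at ± SD over 4 libraries in mutant centrocytes, control centrocytes, mutant centroblasts and control centroblasts. E2f4 and E2f2 are highest in every group, and E2f6 and E2f7 are lowest.

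The comparison of mutant with control centroblasts asks what the Y641F allele changes in dividing germinal centre B cells. Both atypical repressors were lower in mutant centroblasts, and none of the other 6 members passed the test. At an adjusted p under 0.05 (edgeR quasi-likelihood test, Benjamini-Hochberg over all 15240 genes, 2-sided) 2 of 8 members were lower and 0 were higher, beside 6.40% of all tested genes lower and 4.06% higher. With an offset for GC content and transcript length the split over all genes was 1334 lower and 1472 higher, against 976 lower and 619 higher without it. The libraries of the 2 genotypes did not overlap for 3 of 8 members, E2f8, E2f7 and E2f6, beside 14.4% of all genes. The median log2 fold change of the family was −0.21, beside 0.01 over all genes.

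E2f8, an atypical repressor, measured 112, 81.5, 100 and 100 CPM in mutant centroblasts, against 143, 145, 158 and 149 CPM in control centroblasts. The highest mutant library lay below every control library. E2f8 fell by 0.60 ± 0.11 on the log2 scale (SE, adjusted p = 0.0017, edgeR), or 1.51-fold. In bulk samples fewer cells that express a gene and less of its RNA per cell cannot be told apart. In mm10 it lies at chr7:48866429-48881596 on the minus strand, and 610 exon bases overlap the opposite-strand transcript Gm2788. Gm2788 had 23 to 87 counts per library, against 2134 to 6220 for E2f8.

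E2f7, its partner among the atypical repressors, measured 35.9, 28.5, 32.9 and 37.4 CPM in mutant centroblasts, against 42.8, 47.0, 50.7 and 43.7 CPM in control centroblasts. These libraries did not overlap either. E2f7 fell by 0.45 ± 0.11 (log2, SE, adjusted p = 0.0117, edgeR), or 1.37-fold. The call was lost in a fit of the 2 compared groups alone (adjusted p = 0.0509). E2f7 lies at chr10:110745439-110787384 on the plus strand, and its antisense partner 1700020G17Rik had 0 counts in all libraries.

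Within each sex the 2 genes were lower in mutants as well. The log2 ratio of mutant to control means for E2f8 in centroblasts was −0.57 in males and −0.62 in females, and for E2f7 −0.48 and −0.42, with 2 libraries a side and no test. The summed macrophage markers of the genotypes overlapped in centroblasts.

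The activators did not pass the test in centroblasts. E2f3 measured 41.1, 33.4, 40.8 and 36.5 CPM in mutants and 54.6, 49.0, 47.3 and 37.6 CPM in controls, and the fitted difference was −0.31 ± 0.12 (log2, SE; adjusted p = 0.114, edgeR). Control library 4 lay among the mutants, and without it the adjusted p was 0.0201 at a log2 fold change of −0.41. E2f1 gave −0.24 ± 0.13 (adjusted p = 0.296) and E2f2 −0.10 ± 0.11 (adjusted p = 0.648), with overlapping libraries. The GC and length offset moved E2f1 to −0.36 (adjusted p = 0.00542). The transcript of E2f1 has 58.3% GC, beside a median of 49.5% over tested genes.

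Among the repressors that work with RB relatives, E2f4 gave a log2 fold change of −0.03 ± 0.12 (adjusted p = 0.924) and E2f5 of −0.18 ± 0.17 (adjusted p = 0.573). E2f5 differed between the sexes in sign, with log2 ratios of −0.63 in males and 0.30 in females. Leaving out control library 1 moved its fold change to 0.001. Control centroblast libraries 1 to 4 measured 32.6, 24.6, 20.1 and 18.2 CPM for E2f5, falling with the library number. Over the same libraries E2f3 fell as well, E2f1, E2f2 and E2f4 rose, and E2f6, E2f7 and E2f8 kept no such order. Libraries 1 and 2 were male and 3 and 4 female, so sex and library order cannot be told apart. E2f6, the repressor of the Polycomb complex PRC1.6, measured 28.3, 25.7, 30.3 and 25.4 CPM in mutants against 25.1, 24.0, 20.5 and 20.8 CPM in controls. All 4 mutant libraries lay above all 4 control libraries, the nearest being 25.4 CPM in a mutant and 25.1 CPM in a control library. For E2f6 the log2 ratio of mutant to control means was 0.14 in males and 0.43 in females, with 2 libraries a side and no test. Its log2 fold change of 0.28 ± 0.10 did not pass the edgeR test (adjusted p = 0.0764), and it passed in DESeq2 (adjusted p = 0.0307) and with the GC and length offset (adjusted p = 0.0125).

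**Figure D3:**
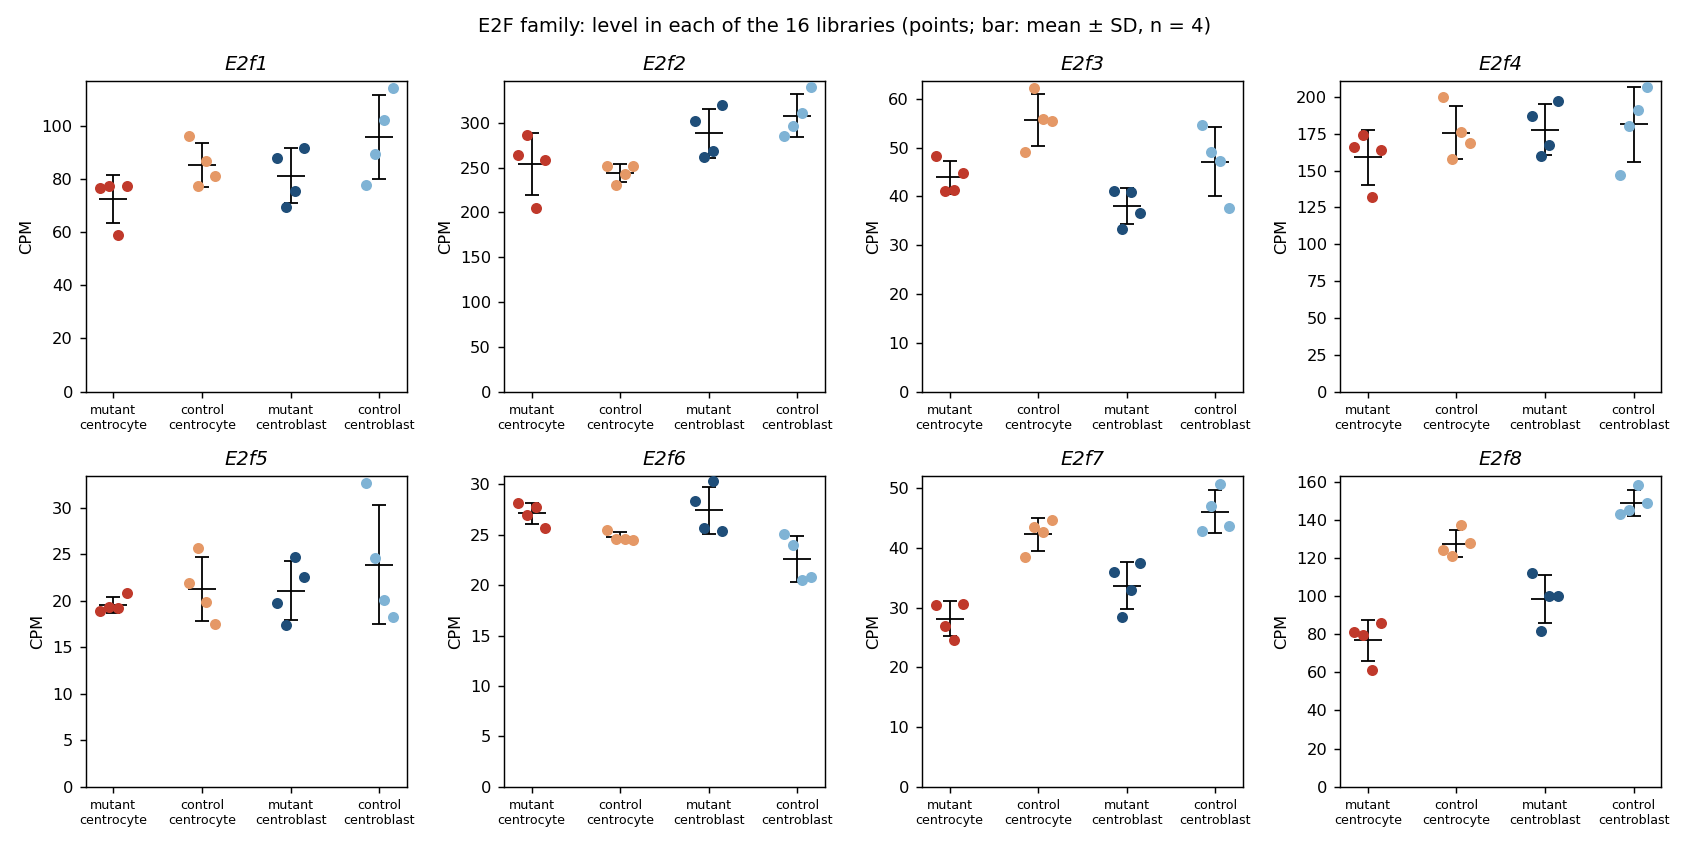
Level of each E2F member in CPM (vertical axis, from 0) in every library, by group, with points for libraries and bars for mean ± SD (n = 4). Mutant points of E2f7 and E2f8 lie below all control points of the same cell type in centrocytes and in centroblasts, and mutant points of E2f6 lie above them.

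The comparison of mutant with control centrocytes asks the same in light zone cells. The 2 atypical repressors were lower in mutants here too, and again none of the other 6 members passed the test. Of the 8 members 2 were lower and 0 were higher, beside 9.15% of all tested genes lower and 7.37% higher. With the GC and length offset the split over all genes was 1914 lower and 2127 higher, against 1394 lower and 1123 higher without it. Libraries did not overlap for 5 of 8 members (E2f1, E2f3, E2f7 and E2f8 below and E2f6 above the controls), beside 23.5% of all genes. The family median was −0.19, beside 0.00 over all genes.

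E2f8 measured 81.1, 79.5, 61.3 and 85.8 CPM in mutant centrocytes, against 124, 121, 137 and 128 CPM in control centrocytes. Every mutant library lay below every control library. E2f8 fell by 0.73 ± 0.11 (log2, SE, adjusted p = 0.000329, edgeR), or 1.66-fold. E2f7 measured 30.5, 27.0, 24.5 and 30.6 CPM in mutants, against 38.4, 43.5, 42.6 and 44.6 CPM in controls. It fell by 0.59 ± 0.11 (adjusted p = 0.00162), or 1.5-fold, again without overlap.

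Mutant centrocyte library 3 was the lowest of its group for E2f8, E2f7, E2f1, E2f2 and E2f4, and it is 1 of the 2 libraries with high macrophage markers. The other, library 4, was the highest of its group for E2f8, E2f7 and E2f1, and neither highest nor lowest for E2f2 and E2f4. Without libraries 3 and 4 the log2 fold change was −0.66 for E2f8 (adjusted p = 0.00469) and −0.55 for E2f7 (adjusted p = 0.0215), so both stayed lower. This setting leaves only male libraries among the mutant centrocytes, against controls of both sexes, so it also changes sex balance and group size. Within males the log2 ratios of mutant to control means were −0.61 for E2f8 and −0.51 for E2f7, and within females −0.85 and −0.66. As a share of the family's summed RPKM, E2f8 made up 7.79 ± 0.446% in mutant and 11.5 ± 0.759% in control centrocytes, and 8.91 ± 0.685% in mutant and 12.1 ± 0.635% in control centroblasts. E2f7 made up 1.73 ± 0.132% in mutant and 2.32 ± 0.246% in control centrocytes, and 1.84 ± 0.0523% in mutant and 2.27 ± 0.188% in control centroblasts.

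Among the activators in centrocytes, E2f3 measured 48.3, 41.2, 41.4 and 44.7 CPM in mutants and 49.0, 62.2, 55.9 and 55.5 CPM in controls. The highest mutant library lay just under the lowest control library. Its log2 fold change of −0.34 ± 0.12 missed the edgeR threshold (adjusted p = 0.0573) and passed in DESeq2 (adjusted p = 0.0354), in a fit of the 2 groups alone (adjusted p = 0.0305), with genes of at least 1 CPM (adjusted p = 0.0443), without immunoglobulin genes (adjusted p = 0.0494) and without control library 1 (adjusted p = 0.0383). E2f1 measured 76.6, 77.1, 59.0 and 77.2 CPM in mutants and 96.2, 77.3, 86.5 and 81.0 CPM in controls, a log2 fold change of −0.23 ± 0.13 (adjusted p = 0.237). The groups were separated by 0.1 CPM, and the GC and length offset gave −0.30 (adjusted p = 0.0136). E2f2, the most abundant activator, gave 0.05 ± 0.11 (adjusted p = 0.771).

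The remaining repressors gave small differences in centrocytes. The log2 fold change was −0.14 ± 0.12 for E2f4 (adjusted p = 0.437), −0.12 ± 0.17 for E2f5 (adjusted p = 0.668) and 0.13 ± 0.10 for E2f6 (adjusted p = 0.381). With the GC and length offset E2f4 gave −0.26 (adjusted p = 0.018). E2f6 measured 28.1, 27.0, 27.7 and 25.7 CPM in mutants and 25.5, 24.6, 24.6 and 24.5 CPM in controls, without overlap but with a gap of under 1 CPM.

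**Figure D4:**
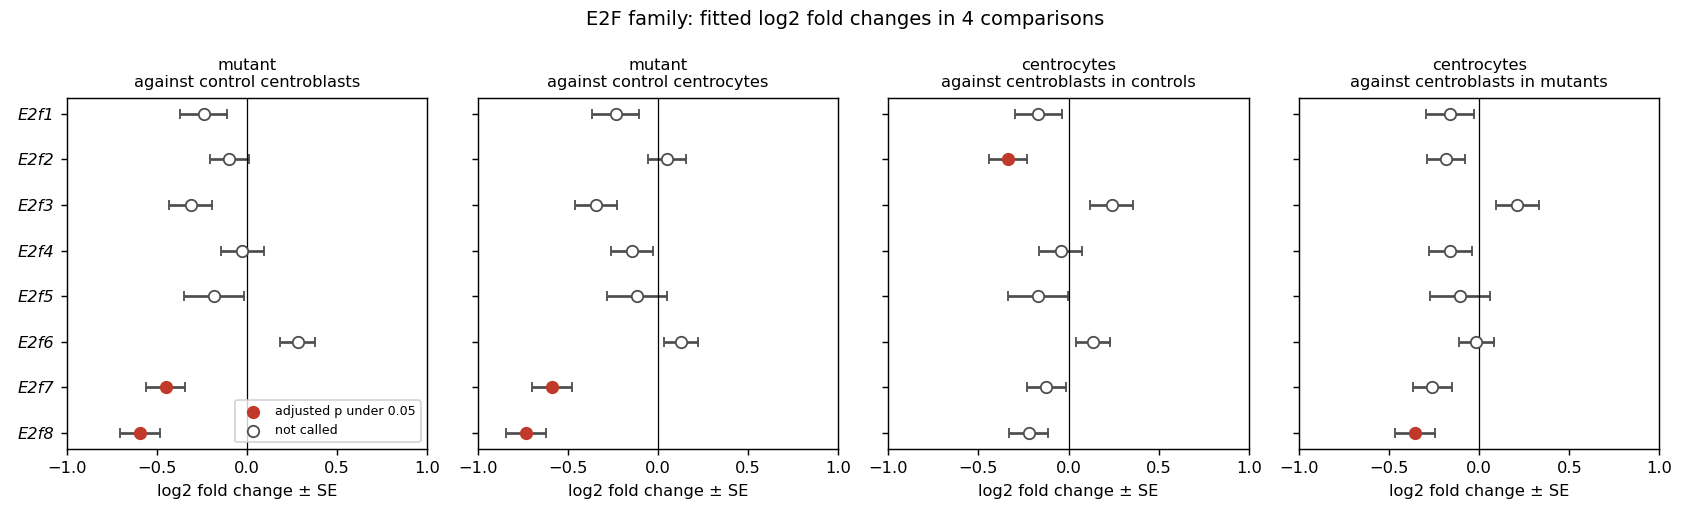
Fitted log2 fold change of each member with its SE in 4 comparisons, with filled points at an adjusted p under 0.05. E2f7 and E2f8 are called lower in mutants of both cell types, E2f2 is called lower in control centrocytes than control centroblasts, and E2f8 lower in mutant centrocytes than mutant centroblasts.

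The comparison of centrocytes with centroblasts sets the light zone against the dark zone. In controls 1 of 8 members was lower and 0 were higher in centrocytes, beside 12.9% of all tested genes lower and 14.9% higher, so the share of members called was close to that of all genes. E2f2 measured 252, 231, 243 and 252 CPM in control centrocytes, against 285, 297, 311 and 340 CPM in control centroblasts. Every centrocyte library lay below every centroblast library. E2f2 fell by 0.33 ± 0.11 (log2, SE, adjusted p = 0.0258, edgeR), and the call was lost without control centrocyte library 2 or 3 or control centroblast library 3 or 4 (adjusted p 0.0521 to 0.0772) and without the filter on low counts (adjusted p = 0.0875). Libraries did not overlap for 2 of 8 members, E2f2 and E2f8, beside 27.7% of all genes. E2f8 gave −0.22 ± 0.11 (adjusted p = 0.145) and E2f3, the activator highest in centrocytes relative to centroblasts, 0.24 ± 0.12 (adjusted p = 0.145). The log2 fold changes of E2f1, E2f4, E2f5, E2f6 and E2f7 ran between −0.17 and 0.13, and none passed. The GC and length offset moved E2f1 to −0.35 (adjusted p = 0.00295).

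In mutants, too, 1 of 8 members was lower in centrocytes and 0 were higher, beside 7.07% of all tested genes lower and 8.92% higher. E2f8 measured 81.1, 79.5, 61.3 and 85.8 CPM in mutant centrocytes, against 112, 81.5, 100 and 100 CPM in mutant centroblasts. The second centroblast library lay among the centrocytes. E2f8 fell by 0.36 ± 0.11 (log2, SE, adjusted p = 0.0346, edgeR). This call was lost in 9 of 19 other settings: without mutant centrocyte libraries 3 and 4 it was −0.29 (adjusted p = 0.141), in a fit of the 2 groups alone the adjusted p was 0.0604, without the filter it was 0.075, and without mutant centroblast library 1, 3 or 4 or mutant centrocyte library 1, 2 or 3 it was 0.0529 to 0.117. E2f7 gave −0.26 ± 0.11 (adjusted p = 0.119) and E2f2 −0.18 ± 0.11 (adjusted p = 0.263). With the GC and length offset 3 more members were called lower, E2f2 at −0.31 (adjusted p = 0.00601), E2f1 at −0.29 (adjusted p = 0.0146) and E2f7 at −0.23 (adjusted p = 0.0383). Libraries did not overlap for 1 of 8 members, E2f3, which stood higher in centrocytes (0.21 ± 0.12, adjusted p = 0.258), beside 22.1% of all genes.

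Whether the genotype difference itself depended on the cell type was tested as an interaction. It was called in 0 of the 8 members and in 0% of all genes with edgeR (429 genes had an unadjusted p under 0.05, and DESeq2 called 1). The estimates for members ran between −0.15 for E2f6 and 0.15 for E2f2, with adjusted p = 0.999 in each. The lower E2f7 and E2f8 in mutants were therefore not shown to differ in size between centrocytes and centroblasts.

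Across the 16 libraries E2f7 and E2f8 were the most alike pair of members, with Pearson's r of log2 CPM of 0.968, and of 0.784 once group means were removed. E2f1 and E2f4 had r of 0.915, and 0.976 within groups. Among 9774 genes with a mean log2 CPM of at least 2, those most alike E2f8 were 4933404O12Rik (r = 0.979), Phf2 (0.979) and Dusp5 (0.969), and those most alike E2f7 were 4933404O12Rik (0.971), Cd93 (0.969) and Phf2 (0.958). Phf2 encodes a histone demethylase, Dusp5 a nuclear phosphatase of ERK, and Cd93 a cell surface lectin. For the activators the first in order was Pola2, a subunit of DNA polymerase alpha, for E2f1 (0.957), Cenpb for E2f2 (0.954) and Dcun1d3 for E2f3 (0.970). For the other repressors it was Lonp1 for E2f4 (0.960), Cep83os for E2f5 (0.909) and Aldh3a2 for E2f6 (0.886). These values describe 16 points that share groups, depth and base composition effects. E2f1, E2f2 and E2f4 have transcripts of 56.1 to 58.3% GC, and the other members of 46.8 to 50.1%.

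The partners and targets of the family were examined as lists. DP proteins pair with E2F1 to E2F6 on DNA, and the pocket proteins RB, p107 (Rbl1) and p130 (Rbl2) hold them. Of the 5 listed genes 3 were lower and 0 higher in mutant centroblasts (median −0.42), and 2 were lower and 1 higher in mutant centrocytes (median −0.34; 0 lower and 1 higher without mutant centrocyte libraries 3 and 4). Over all tested genes 6.40% were lower and 4.06% higher in mutant centroblasts (median 0.01), and 9.15% lower and 7.37% higher in mutant centrocytes (median 0.00), and the lists below are set beside these shares. With single libraries left out 2 to 4 of the 5 were lower in centroblasts and 1 to 2 in centrocytes, with 1 there without mutant library 2 or control library 2. Tfdp2, a DP partner, measured 9.52, 9.40, 7.07 and 5.57 CPM in mutant centroblasts, against 22.4, 17.7, 18.4 and 15.7 CPM in control centroblasts. It fell by 1.23 ± 0.16 (log2, SE, adjusted p = 0.000111, edgeR), with no overlap.

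In centrocytes Tfdp2 measured 8.36, 7.97, 7.12 and 7.66 CPM in mutants, against 11.9, 12.5, 14.1 and 12.9 CPM in controls, and fell by 0.72 ± 0.16 (adjusted p = 0.00549). These libraries did not overlap. Without mutant centrocyte libraries 3 and 4 the fall in centrocytes no longer passed (adjusted p = 0.0723). Tfdp1, the other DP partner, fell by 0.39 ± 0.08 in mutant centroblasts (adjusted p = 0.00271) and by 0.29 ± 0.08 in mutant centrocytes (adjusted p = 0.0169). Its call was lost without the filter on low counts in both cell types, and in centrocytes also without mutant library 2, control library 2 or mutant libraries 3 and 4 (adjusted p up to 0.16).

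Rbl2 rose by 0.37 ± 0.09 in mutant centrocytes (adjusted p = 0.0102), with 87.2, 90.2, 80.7 and 94.4 CPM in mutants against 68.4, 65.3, 68.0 and 71.3 CPM in controls. The call was lost without the filter on low counts. Rbl1 fell by 0.42 ± 0.13 in mutant centroblasts (adjusted p = 0.0435), a call lost in 10 of 19 other settings, and gave −0.34 ± 0.13 in centrocytes (adjusted p = 0.0774, passed in 2 of 19). Rb1 gave −0.69 ± 0.25 in centroblasts (adjusted p = 0.0914, passed in 3 of 19), where its control libraries spread over 48.9, 33.3, 22.4 and 15.8 CPM.

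Among 16 tested G1 cyclins, kinases and inhibitors, 3 were lower and 2 higher in mutant centroblasts, and 2 lower and 0 higher in mutant centrocytes. The share lower in centrocytes was close to the 9.15% of all genes. With single libraries left out 1 to 4 were lower and 0 to 2 higher in centroblasts, and 1 to 2 lower in centrocytes. Skp2, the ubiquitin ligase subunit that marks the inhibitor p27 for destruction, fell by 0.51 ± 0.12 in mutant centroblasts (adjusted p = 0.0101, edgeR) and by 0.40 ± 0.12 in mutant centrocytes (adjusted p = 0.0314, lost in 11 of 19 other settings). Cdkn2c, which encodes the CDK4 and CDK6 inhibitor p18, fell by 0.56 ± 0.13 in mutant centrocytes (adjusted p = 0.00575) and by 0.45 ± 0.13 in mutant centroblasts (adjusted p = 0.0274, lost in 7 of 19). The 2 that rose in mutant centroblasts were Cdkn1b, which encodes p27 (0.72 ± 0.20, adjusted p = 0.0246, lost in 7 of 19), and Cdkn2a, an EZH2 target that encodes p16 and ARF (0.91 ± 0.27, adjusted p = 0.0352, lost in 10 of 19). Cdkn2a was low, at 2.83 ± 0.424 CPM in mutant and 1.5 ± 0.569 CPM in control centroblasts. Cdc25a, the phosphatase that frees CDK2, fell by 0.37 ± 0.10 in mutant centroblasts (adjusted p = 0.0197, lost in 6 of 19), and Cdk2 gave −0.30 ± 0.10 (adjusted p = 0.0678, passed in 5 of 19).

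E2F factors are known to drive genes of the G1/S transition, and some of those listed were lower in mutants. Of 39 listed targets 17 were lower and 0 higher in mutant centroblasts, with a median of −0.38, and 11 were lower and 0 higher in mutant centrocytes, with a median of −0.24, beside 6.40% and 9.15% of all genes lower. The list includes Ezh2 itself. Brca1, a gene of double-strand break repair, averaged 87.4 ± 10.8 CPM in mutant and 129 ± 14.6 CPM in control centroblasts. In centrocytes it averaged 79.2 ± 5.76 CPM in mutants and 118 ± 5.12 CPM in controls. Brca1 fell by 0.56 ± 0.10 in mutant centroblasts (adjusted p = 0.00181, edgeR) and by 0.57 ± 0.10 in mutant centrocytes (adjusted p = 0.00142), and kept both calls in all 19 other settings. Msh6, a mismatch repair gene, fell by 0.53 ± 0.11 in mutant centroblasts (adjusted p = 0.00374), Chaf1a, a histone chaperone subunit, fell by 0.51 ± 0.15 in mutant centrocytes (adjusted p = 0.0242, lost in 4 of 19), and Rfc4, a clamp loader subunit, gave −0.50 ± 0.16 in centroblasts (adjusted p = 0.056, passed in 8 of 19). Without mutant centrocyte libraries 3 and 4 the count in centrocytes was 6 at a median of −0.26. Leaving out single libraries gave 6 to 12 lower in centrocytes (6 without control library 1, 7 without control library 4 or mutant library 2) and 11 to 21 in centroblasts (11 without mutant library 1 or control library 2), and a fit of the compared groups alone gave 10 in centroblasts.

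The DREAM complex also binds genes of G2 and mitosis. Of 26 listed genes 18 were lower and 0 higher in mutant centrocytes (median −0.50), and 5 were lower and 0 higher in mutant centroblasts (median −0.30), beside 9.15% and 6.40% of all genes lower. The interaction was called for 0 of them. Cenpf, a kinetochore protein, fell by 0.94 ± 0.25 (adjusted p = 0.0156, edgeR), Cenpe, a kinetochore motor, by 0.86 ± 0.27 (adjusted p = 0.0395), and Kif11, the spindle motor Eg5, by 0.72 ± 0.16 (adjusted p = 0.00629) in mutant centrocytes. Without mutant centrocyte libraries 3 and 4, with high macrophage markers, none of the 3 passed (adjusted p = 0.0614 for Kif11, 0.127 for Cenpf and 0.201 for Cenpe), and Cenpe was lost in 10 of 19 other settings. The mutant libraries left, 1 and 2, still lay below all controls. They measured 169 and 152 CPM for Kif11 (controls 251 to 274), 56.1 and 49.1 CPM for Cenpf (controls 83.9 to 111) and 119 and 110 CPM for Cenpe (controls 183 to 222). Kif11 averaged 160 ± 13.2 CPM in mutant and 264 ± 9.64 CPM in control centrocytes. In centroblasts Top2a, the topoisomerase of mitotic chromosomes, fell by 0.45 ± 0.13 (adjusted p = 0.0376), Ccna2, cyclin A2, by 0.45 ± 0.12 (adjusted p = 0.0198) and Nek2, a centrosome kinase, by 0.42 ± 0.12 (adjusted p = 0.0282), calls lost in 9, 6 and 6 of 19 other settings in this order. The count in centrocytes was 10 without mutant libraries 3 and 4 and 13 to 18 with single libraries left out. In centroblasts it was 1 to 12 with single libraries left out (1 without mutant library 1 or 2, 12 without control library 4) and 1 in a fit of the compared groups alone. The cell death genes listed as induced by E2F1 had 3 of 6 lower in each cell type, beside 6.40% of all genes in centroblasts and 9.15% in centrocytes. In centrocytes 1 was lower without mutant libraries 3 and 4, and also without mutant library 2, control library 2 or control library 3 alone. Among them was Bcl2l11, which encodes BIM and fell by 0.67 ± 0.15 in mutant centroblasts (adjusted p = 0.00556) and by 1.05 ± 0.15 in mutant centrocytes (adjusted p = 0.000178).

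**Figure D5:**
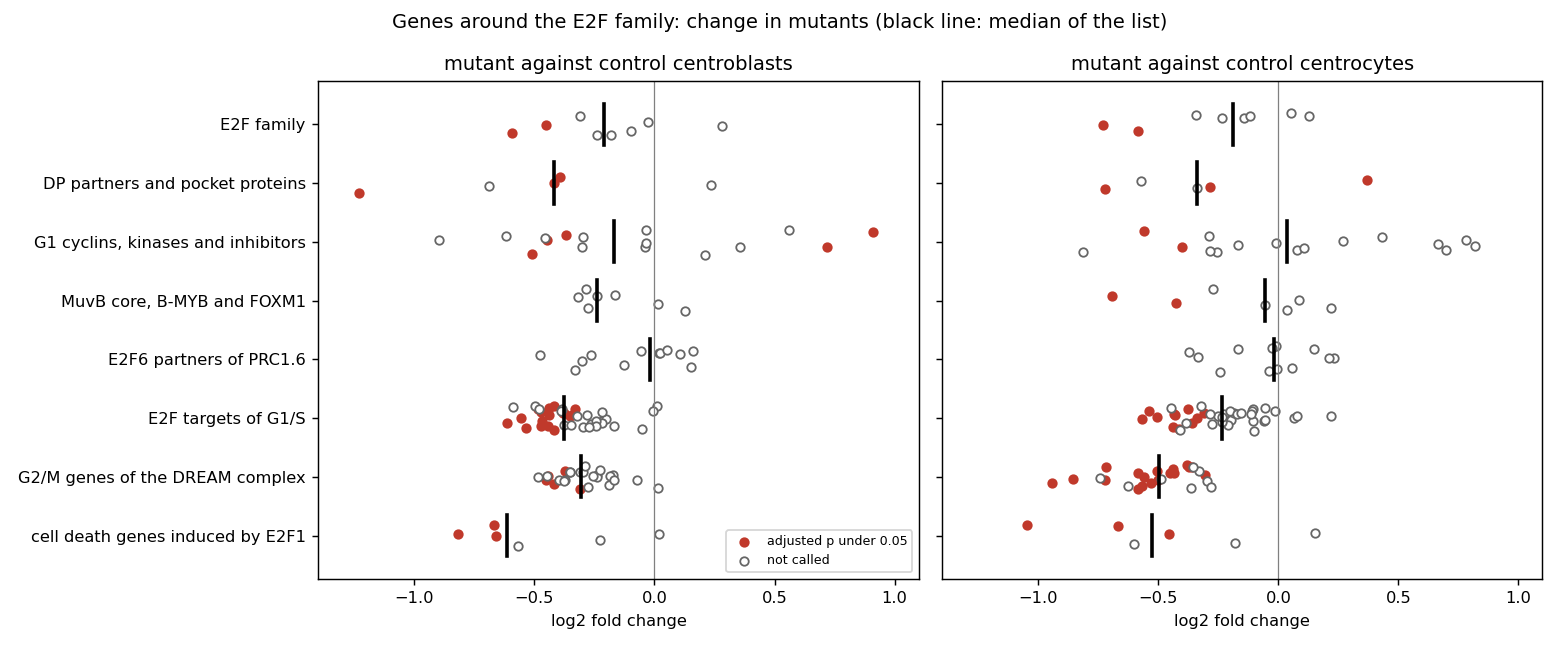
Log2 fold change of each tested gene of 8 lists in mutant against control centroblasts and in mutant against control centrocytes, with filled points at an adjusted p under 0.05 and black lines at each list's median. The medians of the G1/S targets are −0.38 in centroblasts and −0.24 in centrocytes, and those of the G2/M genes are −0.30 and −0.50.

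Of the MuvB core, B-MYB and FOXM1, 2 of 7 were lower in mutant centrocytes and 0 in mutant centroblasts with edgeR (2 had an unadjusted p under 0.05 there, and DESeq2 called 0). With single libraries left out the count in centrocytes was 1 to 2 (2 without control library 2). Foxm1, the mitotic transcription factor, averaged 91.5 ± 14.8 CPM in mutant and 148 ± 9.35 CPM in control centrocytes and fell by 0.69 ± 0.12 (adjusted p = 0.000972, edgeR), and in centroblasts it gave −0.32 ± 0.12 (adjusted p = 0.111). Mybl2, which encodes B-MYB, fell by 0.43 ± 0.14 in mutant centrocytes (adjusted p = 0.0481, lost in 8 of 19 other settings). Of the 12 listed PRC1.6 partners of E2F6, 0 passed in either genotype comparison with edgeR (3 in centrocytes and 2 in centroblasts had an unadjusted p under 0.05, and DESeq2 called 0 and 1). Rybp, a subunit of that complex, gave −0.48 ± 0.16 in centroblasts (adjusted p = 0.0607, passed in 4 of 19). Of 5 listed germline genes that E2F6 represses 1 had enough counts to test. It was Stag3, a meiotic cohesin subunit, which fell by 2.55 ± 0.65 in mutant centrocytes (adjusted p = 0.013, edgeR, and 0.127 without mutant libraries 3 and 4). The levels were 0.562 ± 0.246 CPM in mutant and 3.31 ± 1.74 CPM in control centrocytes. In mutant centroblasts Stag3 fell by 2.37 ± 0.66 (adjusted p = 0.0282, edgeR, lost in 9 of 19). There it measured 0.708, 0.219, 0.366 and 0.496 CPM in mutants and 3.05, 3.38, 2.72 and 0.129 CPM in controls. Control library 4 thus lay below every mutant library, and all these levels were low.

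Between the zones many targets were lower in centrocytes. In mutants 13 of 39 G1/S targets and 21 of 26 G2/M genes were lower in centrocytes and 0 were higher, with medians of −0.27 and −0.88, and without mutant centrocyte libraries 3 and 4 the counts were 10 and 18. Over all genes 7.07% were lower and 8.92% higher. Leaving out mutant centroblast library 4 gave 7 G1/S targets. In controls 26 of 39 and 16 of 26 were lower in centrocytes and 0 were higher, with medians of −0.39 and −0.67, beside 12.9% of all genes lower and 14.9% higher. These 2 comparisons share no library. Ccnb2, cyclin B2, fell by 1.53 ± 0.11 in mutant centrocytes (adjusted p = 4.82e-08, edgeR) and by 1.22 ± 0.11 in control centrocytes (adjusted p = 3.74e-07), each against centroblasts of its genotype. Ccnd2, cyclin D2, went the other way, with a rise of 2.37 ± 0.40 in mutant centrocytes (adjusted p = 0.000536) and of 2.57 ± 0.40 in control centrocytes (adjusted p = 0.000164). In controls Ccnd2 averaged 47.3 ± 10.3 CPM in centrocytes and 7.95 ± 3.80 CPM in centroblasts. The summed level of 7 naive B cell markers moved with the zone, at 1520 to 1800 CPM in mutant and 1460 to 1800 CPM in control centrocytes against 629 to 774 CPM in mutant and 495 to 653 CPM in control centroblasts, and its part in these results was not tested.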

How the data were processed

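RNA of sorted splenic germinal centre B cells was sequenced from TruSeq RNA libraries, 4 in each of 4 groups. The deposited table gives raw read counts per gene, not normalized. Per the submitters' processing notes the tools were Trim Galore, cutadapt, STAR 2.5.3a and featureCounts 1.4.5-p1 of Subread, with mm10. The annotation and the strand and multimapping settings are not given in the sources used here, so counts of overlapping genes are uncertain. Naive B cells, named in the design, were not analysed here.

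The test was edgeR 4.0.16 in R 4.3.3: filterByExpr by group (minimum count 10), TMM factors and a quasi-likelihood test with 1 mean per group over 16 libraries (12 residual degrees of freedom). Benjamini-Hochberg values cover all 15240 tested genes in each of 5 comparisons. Fold changes are tested over reference group as named, on the log2 scale. Lengths, GC content (for 96.9% of tested genes) and coordinates came from GENCODE M21 (mm10) by symbol. Y-linked transcripts gave each library's sex. The alternatives were DESeq2 1.42.0, RLE factors, the compared groups alone, no filter on low counts, a filter at 1 CPM, a replicate block, sex as a covariate, an offset for GC content and length (splines with 4 degrees of freedom), that offset with the block, 393 immunoglobulin genes left out, mutant centrocyte libraries 3 and 4 left out, and each library left out. In mutants, same-numbered centrocyte and centroblast libraries deviated together (correlation 0.263 to 0.327). However, centrocyte library 2 correlated best with centroblast library 1, and centrocyte library 4 with centroblast library 3. Sex ran with the number as well, so a shared animal and a shared sex cannot be told apart, and pairs were not established. In the other comparisons not every pair passed 0.1. The procedure was tested on simulated counts, with a fold change larger than that of any member and without differences of sex or cell mixture. That test therefore does not cover changes of the members' size. The members and gene lists were chosen with earlier results of these data known. Genes named are all members, Ezh2, Cxcr4 and Cd86, up to 3 called genes per direction of each list by size, the uncalled one of smallest p, and the 3 genes most correlated with each member. Of these, part is given in the text, chosen after the values were seen. Some of them are not reported here.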

Additional observations from a re-analysis of the deposited data

Results flagged for a closer look

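In 4 groups of 8 members, 32 in all, the highest or lowest library was compared with its neighbour (Dixon's ratio at its 95% limit), and 2 stood apart, where chance gives about 1 in 20. E2f1 in mutant centrocyte library 3 was 59.0 CPM, below 76.6, 77.1 and 77.2 CPM in the other libraries of its group. This library also had the highest sum of macrophage markers, 231 CPM. Mutant centrocyte library 4 had a sum of 227 CPM and an E2f1 level of 77.2 CPM, the highest of the group. The part of these markers in the E2f1 value was not tested. E2f6 in control centrocyte library 1 was 25.5 CPM, above 24.5 to 24.6 CPM in the others, a group of narrow range.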

How the results depend on the processing

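E2f8 in both cell types and E2f7 in centrocytes kept their direction and call in mutants under all 19 alternatives (adjusted p up to 0.02, 0.00469 and 0.0215). Over the members, with the interaction left out, 553 of 608 results kept direction and call, 16 lost the call, 23 gained it and 16 changed sign. A result that was called in neither fit counts as kept if its direction held. Where a value below moved, the cause was not tested.

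In mutant against control centroblasts, members called were 1 with the compared groups alone, 4 with the GC and length offset and 1 with the replicate block, and genes called were 1056, 2806 and 871. The block took E2f7 there to an adjusted p of 0.1. Same-numbered libraries correlated at −0.028 to 0.344 in this comparison, so their numbers were not read as pairs. In centrocytes, where they correlated at −0.089 to 0.123, members called were 4 with the offset, alone or with the replicate block, and genes called were 4041 with the offset and 1224 without mutant centrocyte libraries 3 and 4. Between zones in controls (correlations −0.006 to 0.452) members called were 2 with the offset, 2 with block and offset and 0 without the filter, and E2f5 was 0.034 with the offset and 0.059 with block and offset. In mutants members called were 0 with the compared groups alone, without mutant centrocyte libraries 3 and 4 and without the filter, 4 with the offset and 5 with block and offset. There E2f5 was 0.008 and 0.027 and E2f6 0.05 and 0.052 with the offset without and with the block, E2f6 was 0.015 without those libraries, and genes called were 3940 and 4539. The block alone changed no member call there.

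For the interaction, E2f1 was −0.003 both without the filter and with the replicate block, E2f3 0.014 without libraries 3 and 4, and E2f5 −0.025 and −0.028 and Ezh2 −0.025 and −0.018 with the offset without and with the block. Ezh2 was 0 without the filter, and DESeq2 called 1 gene.

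With 1 library left out, log2 fold changes in centroblasts ran over −0.121 to 0.033 for E2f4 and −0.3 to 0.001 for E2f5, and in centrocytes over −0.017 to 0.138 for E2f2, where genes called ran over 1601 to 2681. Between zones members called ran over 0 to 1 in controls and in mutants, E2f4 over −0.132 to 0.021 and E2f5 over −0.286 to 0.016 in controls, and E2f6 over −0.052 to 0.04 in mutants. The interaction ran over −0.085 to 0.095 for E2f1, −0.109 to 0.067 for E2f3, −0.125 to 0.177 for E2f5 and −0.071 to 0.098 for Ezh2. Depth was 634 to 13195 counts per member and library.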
